A study of Mus musculus with 2 samples.

Results

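The genes described here are 10 components of the circadian clock and its output: the activators Arntl, Clock and Npas2, the repressors Per1, Per2, Cry2 and Nr1d1, and the output factors Dbp, Hlf and Tef. They were taken by symbol from an expression table of 24015 genes, which held all 10. The table compares cultured mouse embryonic fibroblasts labelled Adar2-KO (genotype Adar2-/-) with fibroblasts labelled Adar2-WT (genotype Adar2+/+). ADAR2 is an enzyme that converts adenosine to inosine in double-stranded RNA. Both cultures were grown in DMEM with fetal bovine serum and antibiotics, and poly(A)+ RNA was sequenced as 1 library per genotype. The kit is labelled as TruSeq or Nextera with no assignment to a library. The labels give neither a harvest time nor a synchronizing treatment, nor the promoter, exon or clone behind the deletion, so hour, kit and genotype cannot be told apart.

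The mammalian clock is a transcriptional feedback loop that runs in most cells, fibroblasts included. BMAL1 (the product of Arntl) pairs with CLOCK or NPAS2 and activates genes through E-box elements, among them the Per, Cry and Nr1d genes. PER and CRY proteins then inhibit that pair, while the REV-ERB receptors (Nr1d1, Nr1d2) repress Arntl and Npas2 through ROR elements (ROREs). DBP, HLF and TEF, the PAR bZIP factors, are driven by the loop and activate output genes through D-boxes. In synchronized cells the Arntl group and the Per, Nr1d1 and Dbp group peak at opposite phases. In an unsynchronized dish the cells drift apart in phase, and the RNA of the whole dish averages over them.

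The KO-labelled and WT-labelled libraries rested on 9546998 and 9446911 reads. The transcript of the targeted gene, Adarb1, stood at 25.8 RPKM (reads normalised to gene length and library total) in the KO-labelled and 18.4 RPKM in the WT-labelled library, which goes against a loss of its RNA. Where only part of a gene is removed, its total may remain, so groups are called by their labels throughout, and every direction rests on them. Of 10 fibroblast markers, 1 was past 2-fold on the upper side (Thy1, 72.1 RPKM in the KO-labelled against 9.40 RPKM in the WT-labelled library) and 1 past 2-fold on the lower side (Dcn, 12.3 against 29.7 RPKM). Summed fibroblast marker levels were 459 RPKM in the KO-labelled and 446 RPKM in the WT-labelled library, a sum of opposite differences. Of these markers 3 were higher in the KO-labelled library and 7 lower. The next by rank were Col1a1 (2563 reads in the KO-labelled against 2218 reads in the WT-labelled library) at the upper end and Lum (224 against 375 reads) at the lower end. Summed epithelial markers (4 genes) were at 1.12 RPKM in the KO-labelled and 2.04 RPKM in the WT-labelled library, a sum of opposite differences. Cdh1, the E-cadherin gene, had 3 reads in the KO-labelled and 75 reads in the WT-labelled library, a log2 ratio of reads of -4.66 (counting interval -6.97 to -3.06). Krt8, a keratin gene, had 18 reads in the KO-labelled and 1 read in the WT-labelled library, a ratio of 4.15 (1.49 to 9.54). Leukocyte and macrophage markers (4 genes) summed to 7.48 RPKM in the KO-labelled and 6.97 RPKM in the WT-labelled library, most of it Cd68 (7.40 and 5.15 RPKM). Csf1r, a macrophage growth factor receptor gene, lay on the other side with 3 reads in the KO-labelled and 64 reads in the WT-labelled library, a ratio of -4.43 (-6.75 to -2.82). Endothelial markers (3 genes) summed to 0.275 RPKM in the KO-labelled and 1.61 RPKM in the WT-labelled library: Kdr had 8 reads in the KO-labelled and 50 reads in the WT-labelled library, Pecam1 3 and 15 reads, and Cdh5 1 and 6 reads. Epcam, Krt18 and Ptprc had a listed value of 0 in the KO-labelled library, against 2 reads, 1 read and 4 reads in the WT-labelled library, and Emr1 was listed at 0 in both. The part of other cell types in the clock gene values was not tested. In RNA of a whole culture, fewer cells that express a gene and less RNA per cell cannot be told apart.

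Promoter windows from RefSeq (build GRCm38.p6; 250 bases before to 50 after an annotated start) were found for 9 of the 10 genes, in 14 windows. The 250 bases upstream of Hlf, Npas2 and Dbp are shown because these genes differed most between the libraries. Capitals mark a cAMP response element (CRE, TGACGTCA), the one searched motif found in the stretches shown.
Hlf (chr11:90390918-90391167, minus strand): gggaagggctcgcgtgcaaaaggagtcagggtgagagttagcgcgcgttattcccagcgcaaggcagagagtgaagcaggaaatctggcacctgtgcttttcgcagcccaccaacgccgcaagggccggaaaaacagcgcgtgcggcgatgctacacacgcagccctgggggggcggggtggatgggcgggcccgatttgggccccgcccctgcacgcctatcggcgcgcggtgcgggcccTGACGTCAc
Npas2 (chr1:39194022-39194271, plus strand): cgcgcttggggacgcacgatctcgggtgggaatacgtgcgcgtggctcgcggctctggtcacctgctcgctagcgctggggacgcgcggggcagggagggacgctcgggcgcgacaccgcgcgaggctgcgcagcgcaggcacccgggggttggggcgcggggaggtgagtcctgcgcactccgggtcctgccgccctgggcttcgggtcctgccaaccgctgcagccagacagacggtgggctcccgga
Dbp (chr7:45704997-45705246, plus strand): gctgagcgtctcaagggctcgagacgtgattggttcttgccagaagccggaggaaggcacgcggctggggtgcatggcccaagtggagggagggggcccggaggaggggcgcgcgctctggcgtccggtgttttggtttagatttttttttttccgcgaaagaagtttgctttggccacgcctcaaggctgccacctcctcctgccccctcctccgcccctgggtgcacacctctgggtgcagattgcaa
The search covered both strands for the E-box CACGTG, the variant E-box AACGTG or CACGTT, the D-box TTATGTAA, TTACATAA, TTACGTAA or TTATATAA, the RORE core AGGTCA or TGACCT, and the CRE. Per1 and Tef held an E-box, Cry2 and Nr1d1 a variant E-box, and Arntl, Clock and Per1 a RORE core. None of the 9 genes held a D-box in its windows. Over all 32851 mouse windows, 7.15% held the E-box, 4.68% the variant E-box, 1.59% the D-box, 16.3% the RORE core and 1.79% the CRE. These are shares of single windows, whereas a gene above is named for a match in any of its windows. One match per gene and motif is shown with the motif in capitals, to be read beside the levels of the same genes.
Per1 (chr11:69098771-69098800, plus strand): agcacccaagtcCACGTGcagggatgtgtg
Per1 (chr11:69098800-69098829, plus strand): gtgacacagcccTGACCTcagtgggggcca
Tef (chr15:81802534-81802563, plus strand): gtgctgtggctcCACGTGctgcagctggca
Cry2 (chr2:92434218-92434247, minus strand): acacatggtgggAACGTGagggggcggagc
Nr1d1 (chr11:98775388-98775417, minus strand): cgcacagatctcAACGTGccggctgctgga
Arntl (chr7:113207530-113207559, plus strand): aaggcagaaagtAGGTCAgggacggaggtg
Clock (chr5:76303604-76303633, minus strand): agctttggcctcTGACCTgacagatgacag
Counted from the start site, these matches began at -166 (E-box) and -137 (RORE core) in Per1, -127 in Tef, -166 in Cry2, -28 in Nr1d1 and -119 in Clock, and after it, at 32, in Arntl. A further Tef start site held an E-box as well, and the CRE of Hlf began at -9. These letters describe short windows, and elements farther from the start sites were not searched.

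Hlf, Npas2, Dbp and Cry2 stood apart between the libraries, and the other 6 genes were close. Differences are given as the log2 ratio of RPKM + 1, KO-labelled over WT-labelled, wherever a gene reached 1 RPKM in either library, which all 10 did. By this measure 2 of the 10 (Hlf and Npas2) were at least 2-fold higher in the KO-labelled library, against 4.42% of the 13867 genes compared. Only Dbp of the 10 was at least 2-fold lower, against 7.46% of all genes. At 1.5-fold the counts were 2 higher and 2 lower, with Cry2 added, against 8.99% and 12.0% of all genes. The median log2 ratio of the 10 genes was 0.12 and that of all genes compared was 0.01. Summed over the 10 genes, the level was 139.0 RPKM in the KO-labelled and 139.3 RPKM in the WT-labelled library. No difference has a replicate check, since each genotype has 1 library.

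**Figure D1:**
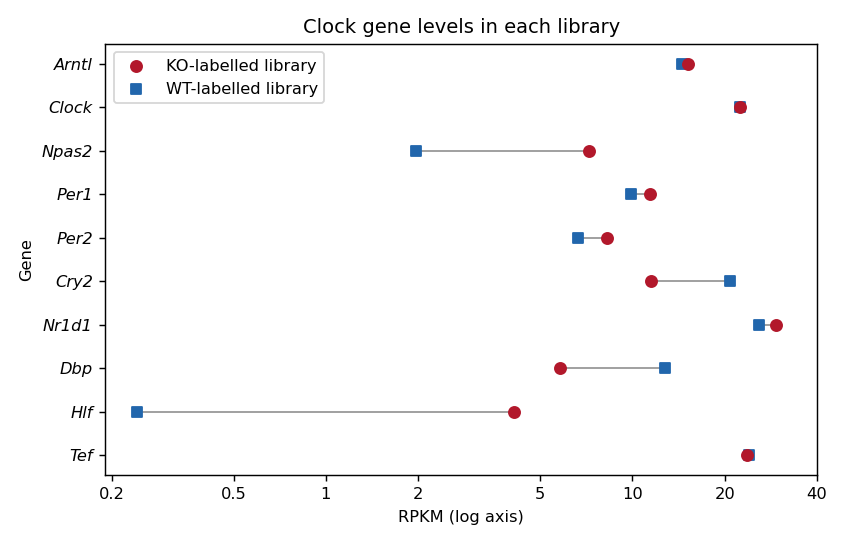
RPKM of the 10 clock genes on a log axis, with the KO-labelled library as circles and the WT-labelled library as squares. Hlf (4.12 against 0.243 RPKM) and Npas2 (7.24 against 1.98 RPKM) lie farther right in the KO-labelled library, Dbp and Cry2 farther left, and the symbols of Clock and Tef coincide.

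The order of levels was much the same at the top and differed in the middle. In the KO-labelled library Nr1d1 was highest at 29.4 RPKM, followed by Tef, Clock, Arntl, Cry2, Per1, Per2, Npas2, Dbp and Hlf, the last at 4.12 RPKM. In the WT-labelled library Nr1d1 led at 25.9 RPKM, followed by Tef, Clock, Cry2, Arntl, Dbp, Per1, Per2, Npas2 and Hlf, the last at 0.243 RPKM. Cry2 and Dbp thus stood lower in the order of the KO-labelled library, while the top 3 genes were the same. The median of the 10 levels was 11.5 RPKM in the KO-labelled and 13.7 RPKM in the WT-labelled library. Without replicates it cannot be said which neighbours in either order differ beyond the spread of cultures.

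Among the activators, Npas2 differed by more than 2-fold, while Arntl and Clock had counting intervals that held 0. Arntl, whose product BMAL1 is the common partner, had 15.2 RPKM (421 reads) in the KO-labelled library, against 14.6 RPKM (400 reads) in the WT-labelled library. The log2 ratio of its reads per library total was 0.06, with a 95% interval of -0.14 to 0.26 that covers counting error only. Clock, the histone acetyltransferase partner of BMAL1, had 22.5 and 22.4 RPKM in the KO-labelled and WT-labelled libraries (interval -0.08 to 0.09). Npas2, a paralog of Clock that can take its place, had 7.24 RPKM (289 reads) in the KO-labelled library, against 1.98 RPKM (78 reads) in the WT-labelled library. This 3.67-fold difference had a log2 ratio of reads of 1.87 (interval 1.51 to 2.25). On the scale of RPKM + 1 the ratio was 1.47, a value that 294 of the 13867 genes (2.12%) reached or passed. Relative to Clock, Npas2 stood at 0.322 in the KO-labelled and 0.0883 in the WT-labelled library. It supplied 24.4% of the RPKM of the pair in the KO-labelled library and 8.11% in the WT-labelled library, while the sum of the pair was 29.7 and 24.4 RPKM.

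Per1 and Per2, the PER repressors, were each slightly higher in the KO-labelled library. Per1 had 11.4 RPKM (513 reads) in the KO-labelled and 9.91 RPKM (440 reads) in the WT-labelled library, with a log2 ratio of reads of 0.21 (interval 0.02 to 0.39). Per2 had 8.24 RPKM (459 reads) and 6.66 RPKM (367 reads) in these libraries, with a ratio of 0.31 (0.11 to 0.51). The balance between them was alike: Per1 stood at 1.39 times Per2 in the KO-labelled and 1.49 times in the WT-labelled library, and the interval of that change held 0 (-0.37 to 0.17). Per3, the remaining family member, lay on the other side at 5.87 RPKM in the KO-labelled and 6.88 RPKM in the WT-labelled library. Summed PER levels were 25.5 and 23.4 RPKM in the KO-labelled and WT-labelled libraries.

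Cry2, which encodes a cryptochrome that inhibits the BMAL1 pair, was lower in the KO-labelled library. Its level was 11.5 RPKM (439 reads) in the KO-labelled and 20.8 RPKM (787 reads) in the WT-labelled library, 1.81-fold lower. The log2 ratio of reads was -0.86 (interval -1.03 to -0.69), and on the scale of RPKM + 1 it was -0.80, which 9.14% of all genes reached or passed. Its paralog Cry1 was closer, at 18.8 and 21.5 RPKM in the KO-labelled and WT-labelled libraries. The ratio of Cry2 to Cry1 was 0.611 in the KO-labelled and 0.968 in the WT-labelled library, a log2 change of -0.66 (counting interval -0.90 to -0.43). Cry2 made up 37.9% of the RPKM of both cryptochromes in the KO-labelled library and 49.2% in the WT-labelled library. Their sum was 30.3 RPKM in the KO-labelled and 42.3 RPKM in the WT-labelled library, and Cry2 differed by more RPKM than Cry1.

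Nr1d1, which encodes the heme receptor REV-ERB-alpha and represses Arntl and Npas2, had the highest level of the 10 genes in both libraries. It stood at 29.4 RPKM (776 reads) in the KO-labelled and 25.9 RPKM (677 reads) in the WT-labelled library, with a log2 ratio of reads of 0.18 (interval 0.03 to 0.33). Its paralog Nr1d2 had 28.8 and 28.2 RPKM in the KO-labelled and WT-labelled libraries. The ratio of Nr1d1 to Nr1d2 was 1.02 in the KO-labelled and 0.918 in the WT-labelled library, a change whose interval held 0 (-0.03 to 0.34). The ratio of Arntl to Nr1d1, a target and its repressor, was also close, at 0.516 and 0.562 (interval of the log2 change -0.37 to 0.12). Nr1d1 overlaps the thyroid receptor gene Thra on the opposite strand in the RefSeq annotation. Reads of that stretch could be counted for either, as the use of strand is not given in the sources used here. Thra stood at 31.2 RPKM in the KO-labelled and 32.6 RPKM in the WT-labelled library.

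The 3 PAR bZIP output factors went 3 ways. Hlf had 4.12 RPKM (223 reads) in the KO-labelled library, against 0.243 RPKM (13 reads) in the WT-labelled library. That is 17.0-fold higher, with a log2 ratio of reads of 4.09 (interval 3.28 to 5.02), and the width of the interval comes from the 13 reads of the WT-labelled library. On the scale of RPKM + 1, which compresses low genes, the ratio was 2.04, and 137 of 13867 genes (0.988%) reached or passed it. Dbp had 5.81 RPKM (93 reads) in the KO-labelled library, against 12.8 RPKM (203 reads) in the WT-labelled library. It was 2.21-fold lower, with a log2 ratio of reads of -1.14 (interval -1.51 to -0.78). On the scale of RPKM + 1 the ratio of Dbp was -1.02, just past 2-fold, and 7.31% of all genes were at or below it. Quantile normalization (-0.95) and the GFOLD value of the authors' deposited table (-0.67) put Dbp within 2-fold. Tef was close, at 23.6 RPKM in the KO-labelled and 24.0 RPKM in the WT-labelled library (interval -0.15 to 0.11).

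The make-up of the PAR bZIP family therefore differed more than its sum. The 3 genes together had 33.6 RPKM in the KO-labelled and 37.0 RPKM in the WT-labelled library. Hlf supplied 12.3% of that in the KO-labelled and 0.656% in the WT-labelled library. Dbp supplied 17.3% and 34.6% in these libraries, and Tef, the largest part, 70.4% and 64.8%. The ratio of Hlf to Dbp was 0.710 in the KO-labelled and 0.0190 in the WT-labelled library, a log2 change of 5.23 (counting interval 4.35 to 6.11). Relative to Nfil3, which encodes a bZIP repressor that competes for the same D-boxes, Dbp stood at 0.110 in the KO-labelled and 0.257 in the WT-labelled library. Nfil3 itself was high and close, at 53.0 and 49.8 RPKM. Dbp also parted from Nr1d1, another E-box target: the ratio of Dbp to Nr1d1 was 0.197 in the KO-labelled and 0.494 in the WT-labelled library (interval of the log2 change -1.71 to -0.94). Dbp overlaps Sphk2, a sphingosine kinase gene on the opposite strand in the RefSeq annotation. Sphk2 was lower too, at 18.2 RPKM in the KO-labelled and 24.3 RPKM in the WT-labelled library, and its part in the value of Dbp was not tested.

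**Figure D2:**
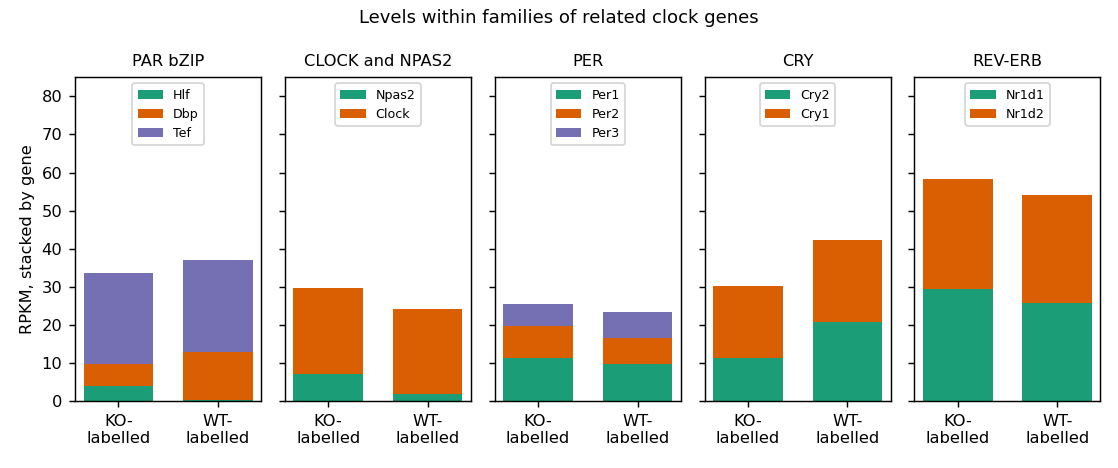
RPKM of related clock genes stacked within each family, with the KO-labelled library left of the WT-labelled library in each panel. Hlf adds 4.12 RPKM to the PAR bZIP bar of the KO-labelled library, where Dbp is smaller, and the CRY bars differ in height (30.3 and 42.3 RPKM) mainly by Cry2.

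Counting intervals of the read ratio left out 0 for 7 of the 10 genes, 5 higher in the KO-labelled library (Hlf, Npas2, Per2, Per1 and Nr1d1) and 2 lower (Dbp and Cry2). Such intervals are narrow at this depth, and over all genes compared 27.3% left out 0 as higher and 26.6% as lower. The lower bounds of Per1 (0.02) and Nr1d1 (0.03) lie close to 0. The background also depends on level. Among genes whose larger value was from 1 to 10 RPKM, as for Hlf and Npas2, 11.0% were 2-fold or more higher and 17.2% were 2-fold or more lower. Among genes at 10 RPKM or more, as for Dbp, the shares were 2.22% and 4.19%. In the authors' deposited table, GFOLD, a log2 fold change shrunken toward 0 where reads are few, was 3.18 for Hlf and likewise above 1 for Npas2. The same table gives -0.67 for Dbp and -0.61 for Cry2, 0.13 for Per2, 0.06 for Nr1d1 and 0.04 for Per1, and exactly 0 for Arntl, Clock and Tef.

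Abundant genes can be compressed in these libraries, where no gene passed 1.19 reads per base in the KO-labelled or 1.01 in the WT-labelled library. The 10 clock genes stayed well under that ceiling, with at most 0.281 reads per base in either library. Genes of the lists below lay nearer to it. Cyr61 had 0.809 reads per base in the KO-labelled and 0.822 in the WT-labelled library. Hsp90aa1 had 0.735 and 0.722, Ccna2 0.656 and 0.656, and Nfil3 0.506 and 0.470. The fibroblast markers Vim (0.773 and 0.781) and S100a4 (0.715 and 0.737) lay nearer to the ceiling too. Small differences in the serum, temperature and cell cycle lists and in the fibroblast markers may thus be compressed, which was not tested.

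Of 12 further transcription factors and repressors 11 were compared, and 0 of them lay 2-fold apart (5 higher, 6 lower, median log2 ratio -0.14). In a list of this size a count of 0 lies near the shares of all genes, 4.42% higher and 7.46% lower. The counts of the other lists are to be read against the same shares. For genes at 10 RPKM or more, as most of the serum, temperature and cell cycle lists are, the shares were 2.22% and 4.19%. Counting intervals left out 0 for 6 of the 11, against 27.3% of all genes as higher and 26.6% as lower. The highest were Timeless (20.6 RPKM in the KO-labelled and 14.3 RPKM in the WT-labelled library), whose product acts mainly in DNA replication in mammals, and Nfil3 (53.0 and 49.8 RPKM). The lowest were Rora (9.10 and 13.2 RPKM), which encodes an activator that acts at ROREs, and Bhlhe41 (6.65 and 8.31 RPKM), which encodes the E-box repressor DEC2. Rorb, under the floor, had 4 reads in the KO-labelled library against a listed 0 in the WT-labelled one.

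Sorted by the element known to drive them, neither class moved as a block. Of 5 genes driven through ROREs (Arntl, Npas2, Clock, Cry1 and Nfil3) only Npas2 was 2-fold higher and 0 were 2-fold lower, with a median log2 ratio of 0.05. Of 11 genes driven through E-boxes or D-boxes, Hlf was 2-fold higher and Dbp 2-fold lower, 9 lay within 2-fold, and the median was 0.03. The upper end of this class was Hlf with Per2 and the lower end Dbp with Bhlhe41. The Cry genes, given above as E-box targets, were not placed in it. Cry1 was sorted with the ROREs, and Cry2 (-0.80) was in neither class.

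**Figure D3:**
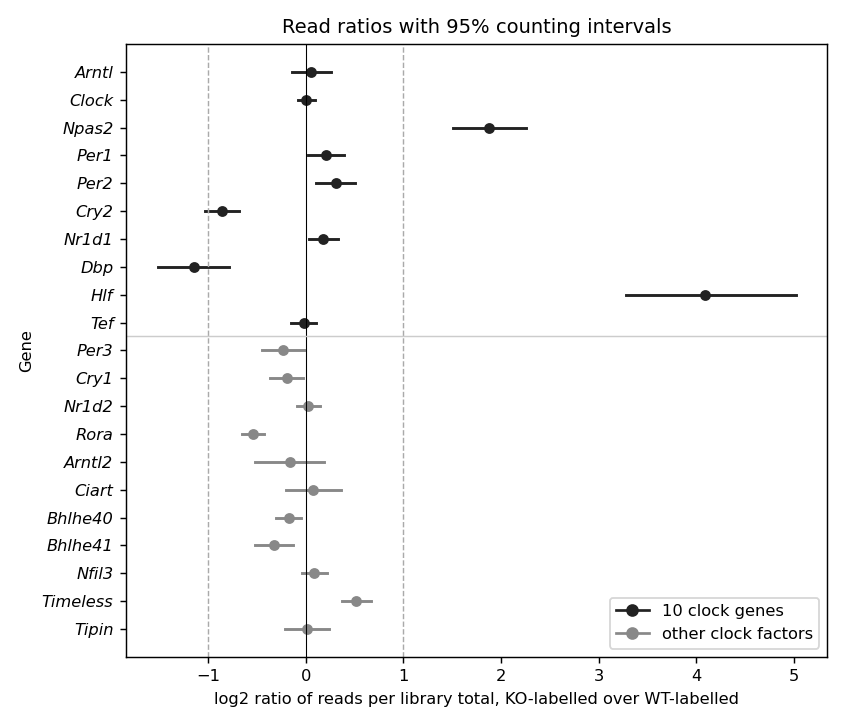
Log2 ratio of reads per library total, KO-labelled over WT-labelled, for the 10 clock genes (black) and 11 further clock factors (grey). Points are ratios, lines are 95% counting intervals and dashed lines mark 2-fold; Hlf (4.09) and Npas2 (1.87) lie right of the upper line, and Dbp (-1.14) beyond the lower one.

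Among the enzymes that set the stability of clock proteins, 0 of 11 kinase and ubiquitin ligase genes were 2-fold apart (median 0.11). Counting intervals left out 0 for 7 of them, against 27.3% of all genes as higher and 26.6% as lower. Csnk1e, encoding a casein kinase that phosphorylates PER, had 34.9 RPKM in the KO-labelled and 27.6 RPKM in the WT-labelled library. Btrc, encoding a ligase subunit that binds phosphorylated PER, had 8.30 and 6.09 RPKM. The lowest were Fbxl21 (0.640 and 1.83 RPKM) and Prkaa2 (1.84 and 1.92 RPKM), which encode a ubiquitin ligase subunit for cryptochromes and a catalytic subunit of the kinase AMPK. Fbxl21 rested on 12 reads in the KO-labelled and 34 reads in the WT-labelled library, with a log2 ratio of reads of -1.52 (interval -2.60 to -0.53) that the scale of RPKM + 1 compresses. Of 12 cofactor genes 1 was 2-fold lower, Id2 (17.0 RPKM in the KO-labelled and 42.8 RPKM in the WT-labelled library), whose product antagonizes helix-loop-helix factors. Of all genes compared 7.46% were 2-fold lower. Intervals left out 0 for 9 of the 12 cofactor genes. The median of the cofactors was 0.19, with the acetyltransferase gene Ep300 (30.1 and 21.5 RPKM) and the deacetylase gene Sirt1 (30.9 and 22.9 RPKM) highest and Hdac3 (44.3 and 50.5 RPKM) second lowest.

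Genes downstream of the clock were mixed, with 0 of 8 compared output genes 2-fold apart (2 higher, 6 lower, median -0.21). Usp2, a deubiquitinase gene with strong daily rhythm in many tissues, had 3.89 RPKM in the KO-labelled and 7.14 RPKM in the WT-labelled library. Lpin1, a phosphatidate phosphatase gene, had 8.51 and 12.8 RPKM. At the upper end, Cdkn1a, which encodes the cell cycle inhibitor p21, had 59.3 RPKM in the KO-labelled and 30.1 RPKM in the WT-labelled library, and the transferrin receptor gene Tfrc 39.3 and 37.5 RPKM. Ppara lay under the floor in both libraries. With Ppara counted, intervals left out 0 for 6 of the 9 output genes, against 27.3% of all genes as higher and 26.6% as lower.

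Inputs that can set the phase of fibroblasts were also compared, since serum, cAMP, glucocorticoids and temperature all act on Per genes. Of 19 serum-induced immediate early genes 0 were 2-fold apart (median -0.04). Their ends were Atf3 (28.4 RPKM in the KO-labelled and 17.3 RPKM in the WT-labelled library) and Btg2 (39.0 and 26.9 RPKM), and Fos (16.2 and 24.3 RPKM) and Klf2 (33.3 and 41.0 RPKM). Of 6 genes of the cAMP and CREB input 0 were 2-fold apart (median -0.04): Crem had 4.88 RPKM in the KO-labelled and 8.86 RPKM in the WT-labelled library, Crtc1 16.9 and 23.9, Creb1 22.9 and 18.2, Sik1 22.8 and 21.9, Crtc2 24.8 and 25.0, and Crtc3 20.4 and 21.2 RPKM. Of 9 compared genes of the glucocorticoid list 0 were 2-fold apart (median -0.19). Intervals left out 0 for 8 of these 9, for 10 of the 19 serum genes and for 3 of the 6 cAMP genes. Over all genes 27.3% left out 0 as higher and 26.6% as lower. Fkbp5 (34.1 and 24.7 RPKM) and Sgk1 (33.2 and 24.7 RPKM) were higher in the KO-labelled library, Mt2 (21.9 and 32.0 RPKM) and Cebpd (42.6 and 58.2 RPKM) lower, and Zbtb16 was under the floor.

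Among 9 temperature-responsive genes 0 were 2-fold apart (median 0.01). The cold-inducible RNA-binding protein gene Cirbp, whose product is known to bind Clock mRNA, was highest at 27.4 RPKM in the KO-labelled and 17.3 RPKM in the WT-labelled library. Rbm3, the other cold-inducible gene of the list, was close at 27.6 and 29.7 RPKM. Hsf1 (28.8 and 23.8 RPKM) and Dnajb1 (37.8 and 43.7 RPKM) were the other ends. Among cell cycle genes, 0 of 10 were 2-fold apart (median 0.09), and the growth of the cultures was not tested. Intervals left out 0 for 8 of these 10 and for 3 of the 9 temperature-responsive genes. The shares of all genes were 27.3% as higher and 26.6% as lower. Birc5 (23.9 RPKM in the KO-labelled and 17.9 RPKM in the WT-labelled library) and Aurkb (31.5 and 27.5 RPKM) were highest, and Ccne1 (24.1 and 35.4 RPKM) and Ccnb1 (55.1 and 59.9 RPKM) lowest.

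**Figure D4:**
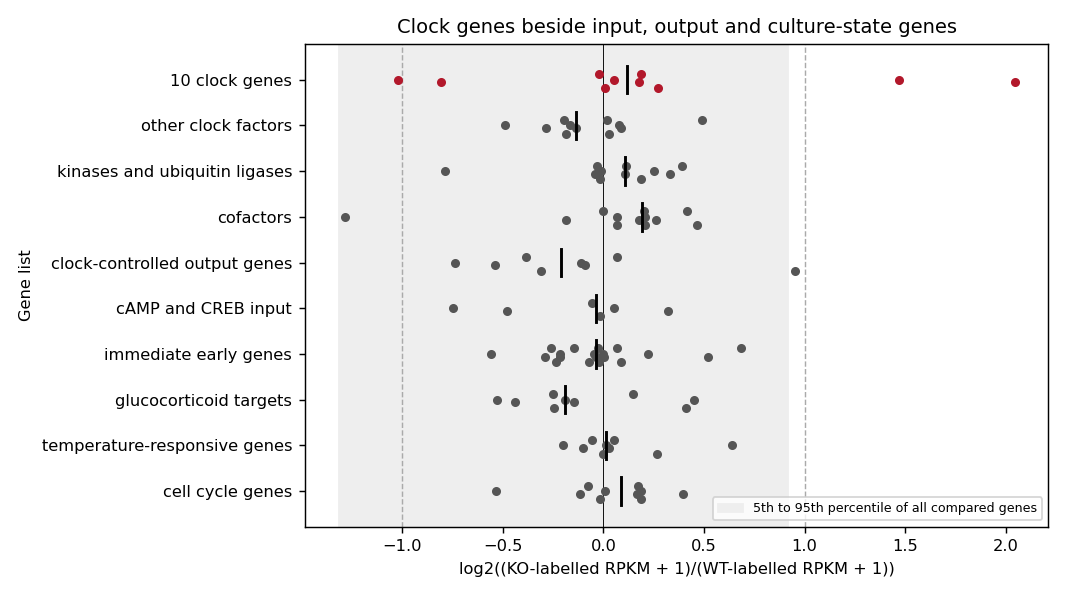
Log2 ratio of RPKM + 1, KO-labelled over WT-labelled, for each compared gene of 10 lists; ticks are list medians, dashed lines mark 2-fold and the grey band spans the 5th to 95th percentile of all compared genes (-1.32 to 0.92). Hlf (2.04) and Npas2 (1.47) lie beyond the band on the right, Cdkn1a (0.95) lies just past its edge, and Id2 is the lowest point at -1.29.

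RNA editing was not listed in any of the 10 genes. The KO-labelled library had 0 of its 110 listed sites in them, and the WT-labelled library 0 of its 654. A list without a site does not show that a transcript is unedited, because the depth over unlisted positions is not given.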

How the data were processed

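Expression was deposited by the authors as RPKM, with a column for each library, in a table written by GFOLD to judge from its column names. Beside RPKM the authors deposited a log2 fold change, the shrunken GFOLD value on the log2 scale, and an empirical FDR that equals 1 throughout and was left aside. Tools in the submitters' processing notes are STAR 2.4.0d and SAMtools, with build mm9. Annotation, counting rule, strand and duplicate handling are not given in these sources. The editing files deposited by the authors give, per the file headers, the count of reads and of mismatches at each site and their ratio as a fraction.

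Log2 ratios were computed as log2((KO + 1)/(WT + 1)) of RPKM, where a gene reached 1 RPKM in either library. There is no p-value, as each genotype has 1 library. Whole reads were recovered from RPKM and the authors' log2 fold change (tolerance 0.1 reads for genes at 0 in 1 library). That fold change is that of reads plus 1 with a constant of 0.0371 added, while the ratios here use the library totals. For Tef it was 0.03, against a log2 ratio of reads of -0.02 here. Of 17981 genes above 0, 17205 (95.7%) had 1 solution, 774 several and 2 none. For Clock (2 solutions) and Tef (14) the smallest reads were taken, which gives the widest interval. Intervals of the read ratio are exact 95% Clopper-Pearson intervals conditional on the sum; those of ratios between genes use the delta method. They cover counting error only, since 1 library per genotype gives no spread between cultures. PCR copies of a molecule cannot be told for sure without molecular identifiers, and any that were counted as reads are not allowed for. The steps were tested on simulated data. The 10 genes, the lists and the 10 gene pairs were chosen with earlier results of these data known. All 10 genes are named; of each further list, all of up to 6 genes, otherwise those 2-fold apart and the 2 highest and 2 lowest; paralogs of the 10 are named besides. Some further genes of these lists are not reported here. Python 3.11.15, pandas 2.3.3 and scipy 1.17.1 were used.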

Additional observations from a re-analysis of the deposited data

How the results depend on the processing

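Directions of Hlf, Npas2, Dbp and Cry2 were the same under all 6 settings that recompute a ratio, and Hlf and Npas2 stayed at least 2-fold higher in each. The size of Hlf depended on the scale: 2.04 on RPKM + 1 became 3.62 with a pseudocount of 0.1 RPKM, 3.98 for reads plus 1 and 3.18 as the authors' GFOLD value. Npas2 was 1.86 for reads plus 1, against 1.47, and Cry2 -0.61 as GFOLD, against -0.80. The count of clock genes at least 2-fold higher was 2, and 1 when at least 5 RPKM in a library was required, since Hlf then drops out. The count at least 2-fold lower was 1; it was 0 with quantile normalization and 0 with GFOLD, where Dbp falls within 2-fold, and 2 at 1.5-fold. The median of the 10 genes ranged over small positive values, from 0.02 with GFOLD to 0.12. No interval of a list median was computed. As an allowance, the median half-width of the single-gene counting intervals of each list was used, which is wide for lists with few reads. Of the medians of the other lists, 107 of 111 recomputed values moved by no more than this allowance. The other 4 were the output genes (-0.03 with GFOLD, against -0.21), the glucocorticoid list (-0.02 with GFOLD, against -0.19), the fibroblast markers (0 with GFOLD, against -0.10) and the leukocyte markers (-1.76 for reads plus 1, against -0.45). Signs of list medians changed for the further clock factors (0.01 with quantile normalization, against -0.14), the temperature list (-0.0011 with median-ratio scaling, against 0.01) and the leukocyte markers (0.45 when at least 5 RPKM was required, which leaves Cd68 alone). No paired analysis was possible because each genotype has 1 library, and for the same reason no library could be left out. Depth limits Hlf most, with 13 reads in the WT-labelled library, followed by Npas2 with 78.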

Other observations

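The edited-site lists touched the clock pathway at 1 place. An intronic site of Btrc, on chromosome 19 at position 45601276 (mm9), was listed in the KO-labelled library with 3 of 9 reads edited (33.3%), and no site of that gene was in the list of the WT-labelled library. The depth at this position in the WT-labelled library is not given, so the values were not compared.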
